A study of Sus scrofa with 6 samples.

Results

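C3, C4A, C9, MBL2 and CFD are 5 genes of the complement system, and their messenger RNA was followed in 3 tissues (fat, liver, muscle) from 2 breeds of pig (Sus scrofa), Berkshire and Korean native. They were chosen by gene symbol, and each symbol was paired with 1 Ensembl pig gene ID, so all 5 were found among the 25322 gene IDs counted. C3 is ENSSSCG00000013551, C4A is ENSSSCG00000001427, C9 is ENSSSCG00000016856, MBL2 is ENSSSCG00000010427 and CFD is ENSSSCG00000013418. The 6 groups were Berkshire fat, Berkshire liver, Berkshire muscle, Korean native fat, Korean native liver and Korean native muscle, with 1 RNA sequencing library each. No treatment or genetic change is given for any group. The labels give neither the age, sex, fat depot nor muscle of the animals, nor how many animals stand behind a breed, so a p-value here measures only the spread among these libraries.

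Complement is a cascade of plasma proteins that marks microbes and damaged cells for removal. It starts by the classical route, in which C1q binds antibody, by the lectin route, in which collectins such as MBL2 and ficolins bind sugars, or by the alternative route, which keeps itself running at a low rate through factor B, factor D and properdin. All routes cleave C3, and a terminal pathway from C5 to C9 then builds a pore in the target membrane. The liver is the known main source of most of these proteins in plasma. CFD, also called adipsin, is the known exception, made largely by fat cells in mouse and human.

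A library held between 5897407 and 7912093 counts on genes. Levels are given as CPM, the usual depth-scaled count, after scaling by the trimmed mean of M-values (TMM), and a count of 0 in a library allows up to 0.294 to 0.692 CPM, the level of 3 counts there. Such floors, and the 95% intervals of ratios given below, cover counting error only. CPM is not divided by gene length, so levels are compared between libraries and not between genes. The defining markers went with the labels of the tissues. Summed over 13 hepatocyte markers the level was 232009 and 263235 CPM in liver and between 31.1 and 70.6 CPM in the other libraries, and 5 adipocyte markers summed to 4581 and 3522 CPM in fat, 540.5 and 321 CPM in muscle and 27.6 and 31.3 CPM in liver. Summed skeletal muscle markers stood at 100287 and 155034 CPM in muscle and at no more than 61.2 CPM elsewhere. In each pair of values given for a tissue, the Berkshire library comes first and the Korean native library second.

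The first comparison asked how the 5 genes differ between the tissues. C3, C4A, C9 and MBL2 were higher in liver than in fat and than in muscle, and CFD was lower in liver than in both. All 5 passed the test for liver against fat, against a background of 28.7% of the 13810 genes tested, and all 5 passed for liver against muscle, where the background was 35.9%. The test was edgeR's quasi-likelihood test on all 6 libraries, with breed in the model and Benjamini-Hochberg adjustment over all genes tested. None of the 5 passed for muscle against fat in edgeR, where the background was 16.4% (9.95% higher, 6.43% lower), and none reached an unadjusted p under 0.05 there. DESeq2 called 1 of the 5 for muscle against fat, C4A, and limma-voom called none. With libraries scaled by total counts, which moved the median gene to -0.98, edgeR called C3 (adjusted p = 0.027), C4A (0.042) and CFD (0.038) lower in muscle than in fat. Without Berkshire fat edgeR called C4A (-3.61, adjusted p = 0.0087) and C9 (-3.27, adjusted p = 0.024) lower.

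**Figure D1:**
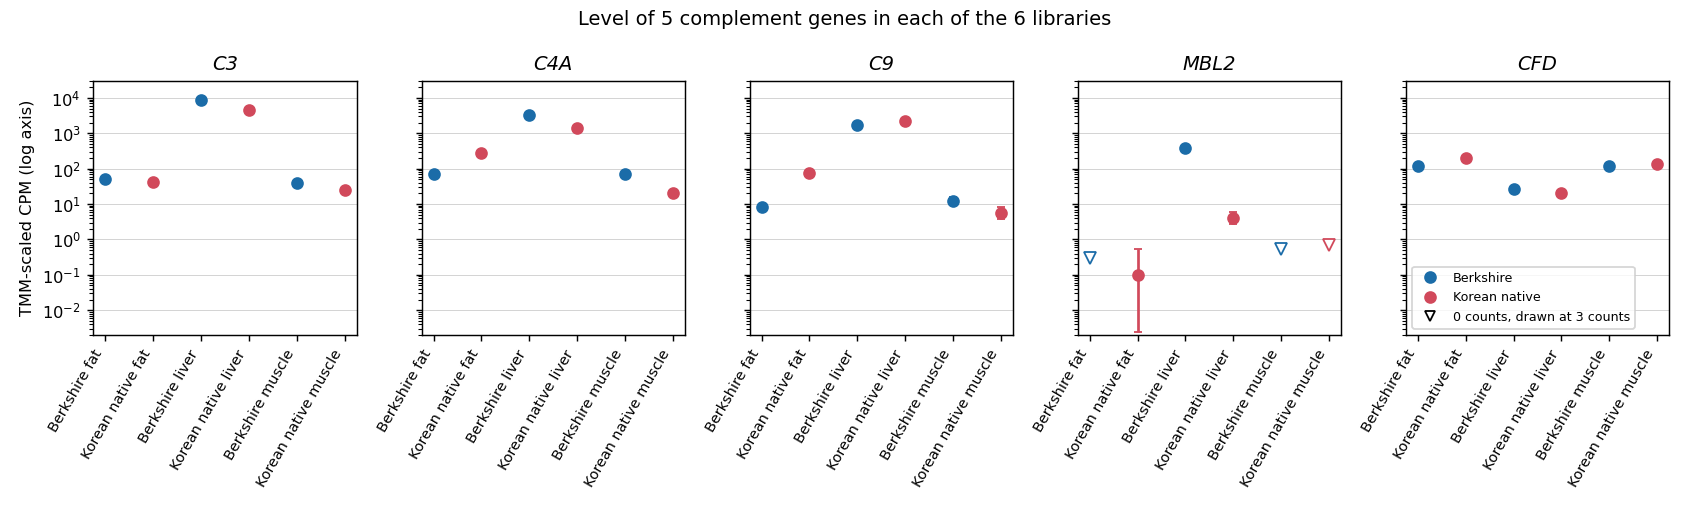
Level of each of the 5 complement genes in each of the 6 libraries, in CPM on a log axis, with fat, liver and muscle side by side and the breeds marked by colour; bars are 95% counting intervals, and a library with 0 counts is drawn at its floor of 3 counts. The liver libraries stand apart from the others upward for C3, C4A and C9 and downward for CFD, and Korean native liver stands far below Berkshire liver for MBL2.

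C3 is the protein on which all routes meet. In liver it stood at 8838 CPM in the Berkshire library and 4548 CPM in the Korean native library, in fat at 51.3 and 40.9 CPM, and in muscle at 39.0 and 24.9 CPM. The liver libraries did not overlap with any other library, and fat lay above muscle within each breed, although the counting intervals of Korean native fat and Berkshire muscle overlapped. In liver the mean was 6693 ± 3034 CPM (SD, n = 2 breeds). The log2 difference between liver and fat was 7.11 ± 0.50 (SE, adjusted p = 1.4e-04 by edgeR), and between liver and muscle 7.68 ± 0.51 (adjusted p = 9.3e-05 by edgeR). Within a breed, liver exceeded fat 172-fold in Berkshire (interval 158 to 188) and 111-fold in Korean native pigs (101 to 123). These ratios lay closer together between the breeds than those of C4A or C9 below.

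C4A encodes the C4 protein, which is split by the proteases of the classical and lectin routes and then forms, with C2, the enzyme that cleaves C3. In liver its level was 3392 CPM in the Berkshire library and 1401 CPM in the Korean native library, in fat 71.2 and 279 CPM, and in muscle 72.1 and 20.5 CPM. Liver was again above all other libraries, but Korean native fat came next and stood well apart from Berkshire fat, which could not be told from Berkshire muscle within counting error. Liver exceeded fat by 3.54 ± 0.94 on the log2 scale (adjusted p = 0.029 by edgeR) and muscle by 5.72 ± 1.00 (adjusted p = 0.0047 by edgeR). The liver to fat ratio was 47.6-fold in Berkshire (44.2 to 51.4) and 5.02-fold in Korean native pigs (4.81 to 5.24). The fat libraries set this value: without Korean native fat the log2 difference was 5.71 (adjusted p = 0.0014 by edgeR), and without Berkshire fat it was 2.20 (adjusted p = 0.043 by edgeR). With libraries scaled by their total counts the difference was 2.50 and did not pass (adjusted p = 0.060 by edgeR). In human, C4 is encoded by near-identical copies, C4A and C4B. The symbol C4B matched no ID here, and if such a copy exists in these pigs its reads could be divided or lost, so the level of C4A is uncertain in that respect.

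C9 is the last component, which polymerises into the membrane pore. In liver it reached 1705 CPM in the Berkshire library and 2248 CPM in the Korean native library, in fat 8.23 and 77.8 CPM, and in muscle 12.1 and 5.77 CPM. Below the liver libraries, Korean native fat stood alone, and the counting intervals of Berkshire muscle, Berkshire fat and Korean native muscle overlapped in that order. The interval of the ratio itself left out equal levels in Berkshire, where fat over muscle was 0.681-fold (0.487 to 0.955). The log2 difference between liver and fat was 5.84 ± 1.04 (adjusted p = 0.0064 by edgeR). Between liver and muscle it was 7.61 ± 1.12 (adjusted p = 0.0022 by edgeR). Liver exceeded fat 207-fold in Berkshire and 28.9-fold in Korean native pigs. Here too the fat libraries set the value, which was 8.05 without Korean native fat and 4.56 without Berkshire fat.

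MBL2 encodes mannose-binding lectin, a plasma collectin that starts the lectin route. It was counted 1956 times in Berkshire liver, at 391 CPM, and 25 times in Korean native liver, at 4.14 CPM. In Korean native fat it had 1 count, at 0.0986 CPM, and it had 0 counts in Berkshire fat and in both muscle libraries. Transcripts were therefore detected above the floor in liver alone, with Korean native liver close to the levels at which counting error is large. Against the floor of 3 counts, Berkshire liver was at least 1332-fold higher than Berkshire fat and at least 713-fold higher than Berkshire muscle. Korean native liver exceeded Korean native fat 42.0-fold, with a counting interval from 6.88 to 1725, and was at least 5.99-fold higher than Korean native muscle. The adjusted p from edgeR was 0.0018 for liver against fat and 0.0016 for liver against muscle, and the latter became 0.052 without Berkshire muscle. In the RefSeq annotation of Sscrofa11.1, a later build than that of the counts, MBL2 overlaps 1 uncharacterised locus.

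CFD encodes factor D, the protease that cleaves factor B in the alternative route. In fat its level was 116 CPM in the Berkshire library and 197 CPM in the Korean native library, in muscle 120 and 138 CPM, and in liver 27.4 and 21.0 CPM. The liver libraries were the lowest, and Berkshire liver was 1.30-fold above Korean native liver, while Berkshire fat and Berkshire muscle could not be told apart. Liver was lower than fat by -2.65 ± 0.39 on the log2 scale (adjusted p = 0.0027 by edgeR) and lower than muscle by -2.39 ± 0.38 (adjusted p = 0.0031 by edgeR). The difference between muscle and fat was -0.26 ± 0.36 (adjusted p = 0.64 by edgeR), and it was 0.21 without Korean native fat. Fat exceeded liver 4.22-fold in Berkshire (3.53 to 5.07) and 9.37-fold in Korean native pigs (7.83 to 11.3). The ratio of fat over muscle was 1.43-fold in Korean native pigs (1.31 to 1.57). In Berkshire it was 0.961-fold (0.873 to 1.06), an interval that includes equal levels. Summed adipocyte markers, by contrast, were 4581 CPM in Berkshire fat and 540.5 CPM in Berkshire muscle, and the part of fat cells in the CFD level of muscle was not tested. CFD overlaps MED16, a subunit of the Mediator complex, in the same RefSeq annotation. MED16 had 86 to 244 counts a library, against 127 to 1999 for CFD, and reads of the 2 genes cannot be told apart where they overlap, since the strand setting of the counting is not given in the sources used here.

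The other genes of complement were read from a list of 62 symbols, of which 37 matched a gene ID and 33 were abundant enough to be tested. Of the 33, 23 were higher and 1, CFD, was lower in liver than in fat by edgeR, and the median log2 difference was 6.50 against 0.06 over all genes tested. Without the 5 genes above, 19 of 28 were higher and none was lower, against backgrounds of 15.2% higher and 13.5% lower. For liver against muscle 28 were higher and 1 was lower, against backgrounds of 18.6% and 17.4%, with a median of 7.61 against -0.01. For muscle against fat none was higher and 2 were lower by edgeR, FCN2 and ITGB2, a share close to the background of 6.43% lower, with a median of -1.31 against -0.05. The symbols that matched no ID include C1R, C1S and CD55, so those genes are not analysed here.

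**Figure D2:**
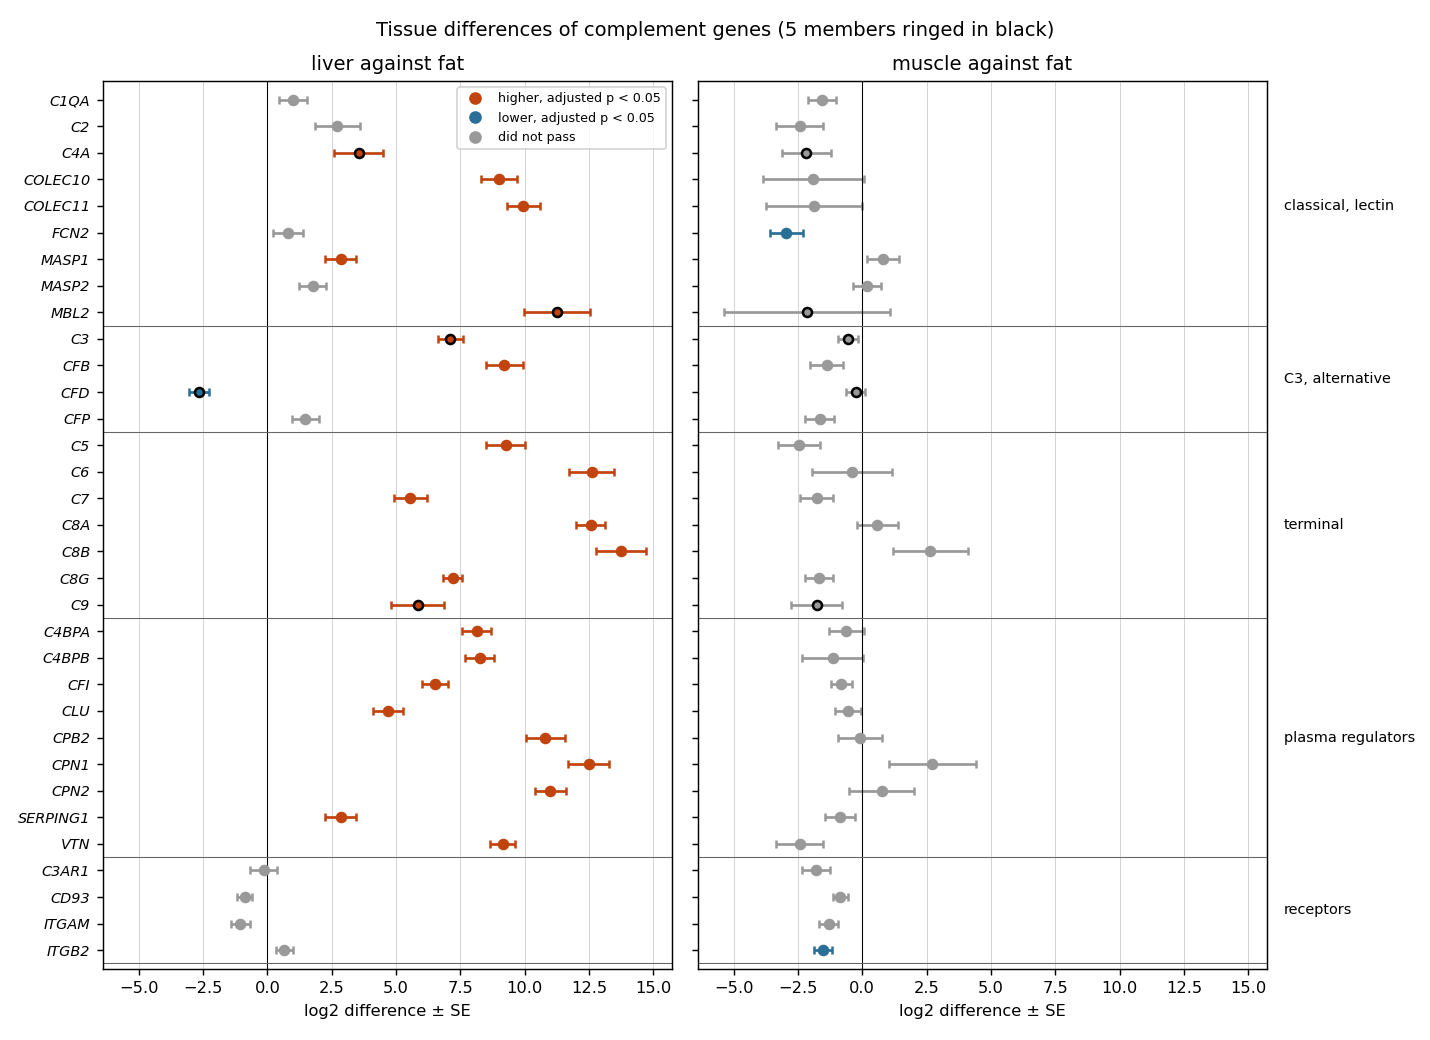
Log2 difference of the 33 tested complement genes for liver against fat (left) and muscle against fat (right), grouped by role, with bars of 1 SE; red and blue points passed as higher and lower (adjusted p under 0.05 by edgeR), grey points did not, and black rings mark the 5 genes. On the left all terminal components and plasma regulators are red, the 4 receptors are grey and CFD is the blue point, and on the right FCN2 and ITGB2 are the blue points; fitted values of genes with 0 to 3 counts in fat or muscle depend on the fit and are no bound.

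Among genes of the classical and lectin routes, 5 of 9 were higher in liver than in fat. MASP1, a protease that pairs with lectins, had 78.0 and 91.6 CPM in liver and 7.64 and 15.8 CPM in fat, a log2 difference of 2.85 ± 0.61 (adjusted p = 0.013 by edgeR). C2, the partner of C4, had 618 and 176 CPM in liver and 24.3 and 65.4 CPM in fat, and its log2 difference of 2.72 ± 0.87 did not pass (adjusted p = 0.055 by edgeR). C1QA, a chain of C1q that macrophages are known to make, also did not pass, with 181 and 114 CPM in liver and 48.0 and 90.5 CPM in fat. FCN2, which encodes a ficolin, was lower in muscle, at 4.94 and 2.31 CPM, than in fat, at 16.4 and 38.7 CPM, by -2.94 ± 0.65 on the log2 scale (adjusted p = 0.025 by edgeR). Without Korean native fat no listed gene passed for muscle against fat, and without Korean native muscle MASP1 alone passed, as higher in muscle (1.80, adjusted p = 0.048 by edgeR).

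In the alternative route CFB, which encodes factor B, the substrate of CFD, had 2731 and 2238 CPM in liver and 2.55 and 5.92 CPM in fat. The log2 difference was 9.21 ± 0.72 (adjusted p = 2.2e-04 by edgeR), opposite in direction to that of CFD. CFP, which encodes properdin, the stabiliser of the alternative C3 convertase, had 38.8 and 26.0 CPM in liver and 6.37 and 18.9 CPM in fat and did not pass (adjusted p = 0.077 by edgeR).

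The terminal genes rose in liver as a group, with 7 of 7 higher than in fat and 7 of 7 higher than in muscle and medians of 9.27 and 11.10 on the log2 scale. C5, the component whose cleavage opens the terminal pathway, had 1912 and 1646 CPM in liver and 1.47 and 4.63 CPM in fat. C8A, a chain of C8, had 1261 and 1346 CPM in liver and 2 counts in each fat library. C7, which anchors the forming complex in the membrane, had 670 and 425 CPM in liver and 7.35 and 14.8 CPM in fat (log2 difference 5.55 ± 0.65, adjusted p = 0.0011 by edgeR). Of the 7, C7 and C9 had the highest levels in Korean native fat relative to Korean native liver, at 3.48% and 3.46%.

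Plasma regulators were higher in liver than in fat for 9 of 9 genes. SERPING1, the C1 inhibitor, had 7708 and 4552 CPM in liver, yet also 608 and 942 CPM in fat and 733 and 242 CPM in muscle (liver against fat 2.85 ± 0.60, adjusted p = 0.013 by edgeR). CFI, which encodes factor I, the protease that inactivates C3b and C4b, had 2532 and 2351 CPM in liver and 20.7 and 33.8 CPM in fat. C4BPA, a chain of the C4b-binding protein, had 560 and 195 CPM in liver and 1.08 and 1.28 CPM in fat. None of the 4 receptors tested passed for liver against fat by edgeR. CD93 had 101 and 89.7 CPM in fat and 57.6 and 46.2 CPM in liver (log2 difference -0.88, adjusted p = 0.059 by edgeR), and it passed as lower by DESeq2 (adjusted p = 0.030) and limma-voom (adjusted p = 0.044). ITGB2, the shared chain of the leukocyte complement receptors, had 21.9 and 20.6 CPM in fat and 43.4 and 26.3 CPM in liver. It was lower in muscle than in fat by -1.52 ± 0.34 (adjusted p = 0.028 by edgeR).

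Liver transcripts can be set beside a scale that complement does not enter, that of 12 hepatocyte markers with at least 10 CPM in both livers. Relative to the liver of the same breed, these markers had a median level of 0.0132% in Berkshire fat and 0.0148% in Korean native fat, and 0.0729% at most. In Berkshire fat C3 stood at 0.581%, C9 at 0.482% and C4A at 2.10% of the liver level. In Korean native fat C3 stood at 0.900%, C9 at 3.46% and C4A at 19.9%. All 6 of these values lie above the highest of the 12 markers in the same library. Other listed complement genes did so too, such as C7 at 1.10% in Berkshire fat and 3.48% in Korean native fat. Several listed genes stood above C4A in Korean native fat, among them FCN2, C1QA and CFP at 1.14, 0.796 and 0.728 times the liver level. MASP2, C2 and SERPING1 stood at 0.616, 0.370 and 0.207 times that level. Others, such as C6 and C8A, did not lie above the highest marker in fat. In muscle the highest marker was at 0.0785% in Berkshire and 0.0976% in Korean native pigs, and C3, C9 and C4A stood between 0.256% and 2.13%. MBL2 was not above its floor in fat or muscle. In bulk tissue, fewer cells of a type and less RNA per cell cannot be told apart, here and in the values that follow.

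**Figure D3:**
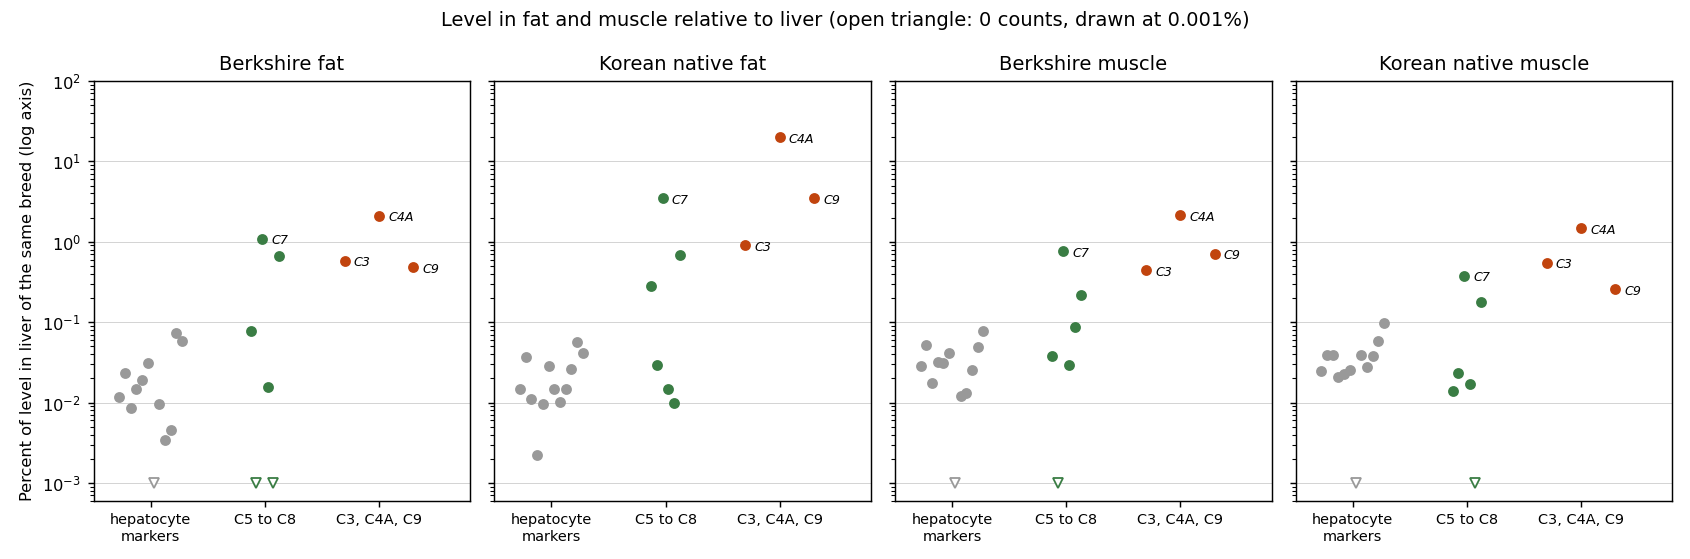
Level in each fat and muscle library as a percent of the liver level of the same breed, on a log axis, for 12 hepatocyte markers (grey), the terminal genes from C5 to C8 (green) and C3, C4A and C9 (orange); open triangles are genes with 0 counts. C3, C4A and C9 lie above all the hepatocyte markers in each of the 4 libraries. Among the genes drawn, the highest point is C4A in Korean native fat at 19.9%.

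The second comparison asked whether the breeds differ. Over all tissues together, none of the 5 genes and none of the 33 listed complement genes passed by edgeR, DESeq2 or limma-voom, with a background of 0.109% in edgeR (0.029% higher and 0.0797% lower). At an unadjusted p under 0.05, edgeR and DESeq2 each had 3 of the 33 and limma-voom had 6, where edgeR had 7.99% of all genes, so 3 is near the background. The Korean native minus Berkshire log2 difference was -0.65 ± 0.32 for C3 (adjusted p = 0.68 by edgeR), -0.47 ± 0.77 for C4A (adjusted p = 0.90 by edgeR), 0.86 ± 0.79 for C9 (adjusted p = 0.83 by edgeR) and 0.21 ± 0.30 for CFD (adjusted p = 0.88 by edgeR). The values of C4A, C9, CFD and MBL2 changed sign when 1 library was left out. For MBL2 the difference was -6.21 ± 1.05 (adjusted p = 0.21 by edgeR). It was 2.24 without Berkshire liver and 2.21 without Korean native liver, and DESeq2 gave -0.11 (adjusted p = 1). By edgeR the MBL2 difference passed without the filter on low counts (adjusted p = 0.013 by edgeR), without Berkshire fat (adjusted p = 0.021 by edgeR) and without Korean native fat (adjusted p = 0.020 by edgeR).

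Inside a single tissue the breeds are represented by 1 library each, so the ratios below have no replicate check and no test. They are read among genes that reach 10 CPM in either library. In fat, C9 was 9.46-fold higher in the Korean native library (counting interval 7.54 to 11.99), and 18 of 7994 genes, C9 among them, had a ratio as high or higher. C4A was 3.92-fold higher (3.61 to 4.26), a ratio that 53 of 7994 genes reached. CFD was 1.71-fold higher (1.59 to 1.83). C3 went the other way and was 1.25-fold higher in the Berkshire library (1.10 to 1.43). Of the 4 genes that passed the minimum in fat, C9 and C4A were at least 2-fold higher in Korean native fat and none was lower, C9 having passed the minimum through that library alone, where the background was 7.57% in all, 4.15% higher and 3.42% lower.

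In liver, MBL2 was 94.5-fold higher in the Berkshire library (63.8 to 146), and 12 of 8357 genes, MBL2 among them, had a ratio as low or lower. C4A was 2.42-fold higher (2.36 to 2.49) and C3 1.94-fold higher (1.91 to 1.97) in Berkshire liver. C9 was 1.32-fold higher in Korean native liver (1.28 to 1.35), and CFD was 1.30-fold higher in Berkshire liver (1.02 to 1.67). Of the 5 genes, 2 were at least 2-fold lower in Korean native liver, and none was that much higher, against backgrounds of 5.53% lower and 5.76% higher (11.3% in all). Of these 2, MBL2 passed the minimum through the Berkshire library alone.

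In muscle, C4A was 3.51-fold higher in the Berkshire library (2.78 to 4.47) and C9 2.09-fold higher (1.30 to 3.47), where 20.3% of 8252 genes were at least 2-fold apart, 9.34% lower and 11% higher in Korean native muscle. C3 was 1.57-fold higher in Berkshire muscle (1.24 to 1.99), and CFD was 1.15-fold higher in Korean native muscle (1.02 to 1.28), a direction that turned when libraries were scaled by total counts. C4A was thus higher in the Korean native library in fat and higher in the Berkshire library in liver and muscle. C3 was higher in the Berkshire library of all 3 tissues.

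**Figure D4:**
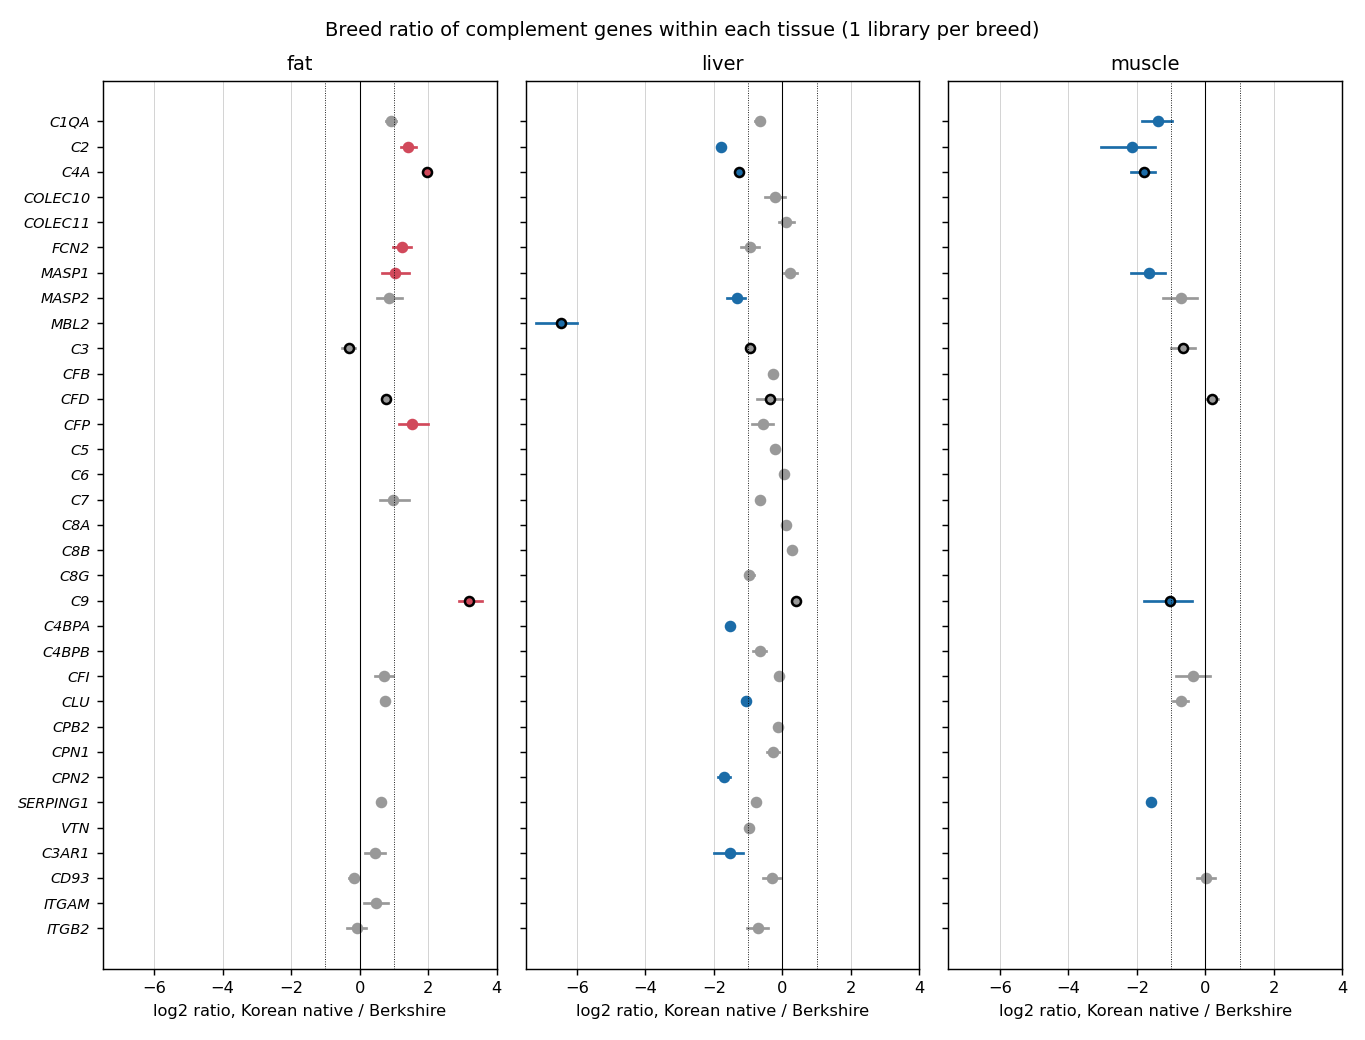
Korean native over Berkshire log2 ratio of listed complement genes within fat, liver and muscle, for genes that reach 10 CPM in either library, with 95% intervals that cover counting error only; red and blue points are at least 2-fold higher and lower, dotted lines mark 2-fold, and black rings mark the 5 genes. C4A lies above 0 in fat and below 0 in liver and muscle, C9 goes from 3.20 in fat to -1.03 in muscle, and MBL2 appears in liver alone, at -6.46.

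The wider list was read in the same way. In fat, 18 listed genes passed the minimum, 6 of them were at least 2-fold higher in the Korean native library (background 4.15%) and none was lower (3.42%), and the median log2 ratio was 0.81 against 0.02 over all genes. Without the 5 genes it was 4 of 14. These 4 were C2 at 2.69-fold, FCN2 at 2.36-fold, MASP1 at 2.07-fold and CFP at 2.97-fold. Of the 6 genes at least 2-fold higher, C9, MASP1 and CFP reached the minimum through the Korean native library alone. Of the other listed genes in fat, MASP2 and C7 did so too. An alternative minimum, a mean of at least 10 CPM over both libraries, was added after the data were seen. With it the count was 6 in fat, 8 in liver and 5 in muscle. The backgrounds in this paragraph belong to the minimum in either library and not to that alternative. In liver, 32 passed the minimum, none was at least 2-fold higher in the Korean native library (background 5.76%) and 8 were lower (5.53%), with a median of -0.66 against 0.00. Beside C4A and MBL2 these were C2, MASP2, C4BPA, CLU, CPN2 and C3AR1, from 2.10-fold for CLU to 3.50-fold for C2. MBL2 reached the minimum in liver through the Berkshire library alone. In muscle, 12 passed, none was at least 2-fold higher (background 11%) and 6 were lower (9.34%), with a median of -0.88 against 0.08. Beside C4A and C9 these were C1QA, C2, MASP1 and SERPING1, from 2.64-fold for C1QA to 4.67-fold for C2. C9, C2 and MASP1 reached the minimum in muscle through the Berkshire library alone.

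Markers of macrophages moved with the fat and muscle ratios. The 9 macrophage and monocyte markers that matched summed to 171 CPM in Berkshire fat and 399 CPM in the Korean native library, to 139 and 46.4 CPM in muscle, and to 915 and 711 CPM in liver. In fat, 7 of the 9 passed the minimum and 4 of those 7 were at least 2-fold higher in the Korean native library (background 4.15%), among them CD14 at 2.39-fold and LYVE1 at 3.67-fold. In muscle, 4 passed and all 4 were at least 2-fold lower (background 9.34%). Of the markers at least 2-fold apart, TIMD4 reached the minimum in fat through the Korean native library alone. CD68 and CSF1R reached it in muscle through the Berkshire library alone. In liver, 1 of 9 was at least 2-fold higher and 1 was at least 2-fold lower (5.76% and 5.53%). The higher one, MARCO, was the only marker with a positive ratio and reached the minimum through the Korean native library alone. The median log2 ratio of the 9 in liver was -0.46 against 0.00 over all genes. CD163, AIF1 and ADGRE1 matched no ID. Summed hepatocyte markers were 31.1 CPM in Berkshire fat and 43.1 CPM in Korean native fat. Most of this sum was ALB, with a mean of 25.8 CPM over the fat libraries. Summed fibroblast markers were 13749 and 20173 CPM in fat, and 21689 and 5063 CPM in muscle. Summed adipocyte markers were lower in Korean native than in Berkshire fat, opposite to CFD. In muscle, 4 of 5 adipocyte markers were at least 2-fold lower in the Korean native library, with a median log2 ratio of -2.01, while PLIN4, the most abundant of them, had 282 and 263 CPM. Of the mesothelial and epithelial markers, KRT8 alone passed the minimum in fat, at 0.196 CPM in the Berkshire and 13.7 CPM in the Korean native library. KRT18 had 0 and 3.55 CPM there. WT1 and CDH1 of the same list, also below the minimum in fat, went the other way and were higher in the Berkshire library. The part of these cell types in the complement ratios was not tested.

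For each of the 5 genes, the genes with the most similar pattern were sought among 7370 others with a symbol, by the root mean square difference of log2 CPM centred over the 6 libraries. C3 was nearest to ASS1, an enzyme of the urea cycle, at 0.24, to SLC6A12 at 0.28 and to the complement gene C8G at 0.29. C4A was nearest to C2 at 0.45, and then to CD14 and TIMD4, which are macrophage markers, at 0.54 and 0.56. C9 was nearest to DSG2, a desmosomal cadherin, at 0.67, to GATM at 0.68 and to DSC2 at 0.71. CFD was nearest to SYT7 at 0.17, STAT5A at 0.22 and SLCO3A1 at 0.27. MBL2 was nearest to HSD17B11 at 0.51, CRP at 0.74 and CYP1A2 at 0.79. CRP, an acute-phase protein that binds C1q in human, had 2682 and 7.46 CPM in liver, a gap in the same direction as that of MBL2. HSD17B11 had 2936 and 68.4 CPM and CYP1A2 had 415 and 17.6 CPM in liver. These distances describe 6 libraries and carry no test.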

How the data were processed

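Frozen fat, liver and muscle were extracted with Trizol, and 1 library was made per breed and tissue with the Illumina TruSeq RNA kit, per the labels' protocols. The submitters' processing notes name TopHat, HTSeq 0.5.3p3 and the build Sscrofa10.2. How strand and overlaps were handled, and which annotation was used, is not given in the sources used here. The values deposited by the authors are raw counts per Ensembl gene ID. The 5 closing entries that name no gene held 64.7% to 67.4% of a library's entries and were left out. Symbols came from a supplied table that matched 11804 of 25322 IDs.

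Counts were fitted with edgeR 4.0.16 in R 4.3.3, with tissue and breed as terms over all 6 libraries, TMM factors and filterByExpr, which kept 13810 genes. All 5 members passed this filter. The two-sided quasi-likelihood test was adjusted by Benjamini-Hochberg at 0.05. Each SE was derived from the F statistic, by dividing the log2 value by its root, and 2 residual degrees of freedom remained. The biological coefficient of variation was 29.5%. CPM divides counts by the library's counts on kept genes times its TMM factor. Within a tissue, log2 ratios used a prior count of 2, and folds carry exact (Clopper-Pearson) binomial intervals at 95%. DESeq2 1.42.0, limma-voom (limma 3.58.1), other scalings, no filter, a one-factor model, a minimum of 1 CPM, a mean of at least 10 CPM (added after the data were seen) and leaving out each library were tried as alternatives. The procedure was tested on simulated counts. No gene set test was made.

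The members and the gene lists were chosen with earlier results of these data known. Named beside the members are up to 6 genes of highest CPM in each role, listed genes at least 2-fold apart within a tissue, the 3 nearest genes to each member and up to 4 abundant genes of a marker list. Not every such gene is printed. MED16, STAT3, IL1R1, HNF4A, KRT8, KRT18, WT1 and CDH1 were named after their values were seen. Sequences and promoter motifs are not analysed here.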

Additional observations from a re-analysis of the deposited data

Results flagged for a closer look

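Of the 17 listed complement genes that reached 10 CPM in 2 or more tissues, 14 had breed ratios of opposite sign in 2 tissues, with counting intervals that left out equal levels in both. The same held for 2222 of all 7969 genes with that minimum (27.9%). Counting intervals narrow as counts rise, and these genes were not matched to the listed genes for count. A gene reached the minimum in a tissue if either library did. C9, MASP1, MASP2, CFP and C7 did so in fat through the Korean native library alone. C9, C2 and MASP1 did so in muscle through the Berkshire library alone. For them the minimum favours a positive ratio in fat and a negative ratio in muscle. The difference between tissues was not tested, because each breed and tissue has 1 library. Values are Korean native minus Berkshire log2 ratios. C4A stood at 1.97 in fat, -1.28 in liver and -1.80 in muscle. C9 stood at 3.20 in fat, 0.40 in liver and -1.03 in muscle, and CFD at 0.77, -0.38 and 0.20 in the same order.

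The initiating genes C1QA, C2 and MASP2, with values in all tissues, had the signs of C4A, positive in fat and negative in liver and muscle. In fat, liver and muscle, C1QA had 0.91, -0.67 and -1.38, C2 had 1.42, -1.81 and -2.14, and MASP2 had 0.86, -1.34 and -0.72. MASP1 had 1.02, 0.23 and -1.63, and was therefore also positive in liver. FCN2 had 1.23 in fat and -0.94 in liver, and CFP had 1.53 in fat and -0.57 in liver.

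Among regulators, SERPING1 had 0.63 in fat, -0.76 in liver and -1.60 in muscle, and CLU had 0.73, -1.07 and -0.72. The terminal component C7 had 0.98 in fat and -0.66 in liver. CFI had 0.70 in fat and -0.11 in liver, and C3AR1 had 0.45 in fat and -1.55 in liver. All 14 were positive in fat, and the matching share among all genes with opposite ratios is not given here.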

How the results depend on the processing

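Tissue differences were already taken within breed, since breed is a term of the model, and the one-factor model is the fit without it. Liver against fat and liver against muscle kept their direction for all 5 members under every alternative run, and lost a call for C4A with total counts and for MBL2 without Berkshire muscle, as given above. With 1 library left out, the liver to fat log2 difference ranged from 6.87 to 7.35 for C3, 2.20 to 5.71 for C4A, 4.56 to 8.05 for C9, 5.14 to 14.23 for MBL2 and -3.09 to -2.22 for CFD. A tissue left with 1 library is assumed to vary like the others.

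Total counts moved the median gene to -0.94 for liver against fat and -0.98 for muscle against fat. They gave 6955 genes called for liver against fat (3959 with TMM), 6020 for muscle against fat (2262) and 17 listed complement genes (2). The complement counts for muscle against fat that follow are printed without the share of all genes called in each fit. They are not read as a result about complement genes. The complement count for muscle against fat was 6 with no filter, 8 with DESeq2, and 0 to 10 with 1 library left out, 0 without Korean native fat, 10 without Berkshire fat, and 1, in the opposite direction, without Korean native muscle. Genes called ranged from 2452 to 4823 for liver against fat and from 866 to 2652 for muscle against fat. The breed comparison gave 15 genes, 87 with no filter, 94 with DESeq2, 0 in the one-factor model, and 16 to 83 with 1 library left out. Its complement count was 1 with no filter and 0 to 1 with 1 library left out, MBL2 each time.

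Signs turned for differences that had not passed. For muscle against fat, MBL2 was 0.28 by limma-voom, against -2.16, and ranged from -8.24 to 3.29. C9 ranged from -3.32 to 0.22 and CFD from -0.64 to 0.21. For breed, C4A ranged from -1.54 to 0.34, C9 from -0.26 to 1.77, CFD from -0.083 to 0.48 and MBL2 from -6.53 to 2.24, the last positive without either liver. CFD within muscle was -0.12 with total counts, against 0.20. With a minimum of 1 CPM, genes 2-fold apart numbered 1518 in fat (605), 2064 in liver (943) and 3175 in muscle (1678), and complement genes 10 in fat (6) and 10 in muscle (6). The cause of these changes was not tested. By Pearson r, 1 of 3 nearest genes was shared for C3, MBL2 and CFD and 0 for C4A and C9.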

Other observations

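Of 14 matched transcription factors and cytokine signal genes known to act on complement in liver, 7 were higher in liver than in fat by edgeR (background 15.2%) and none was lower (13.5%), with a median log2 difference of 1.60 against 0.06 over all genes. HNF4A, a nuclear receptor of hepatocytes, had 949 and 811 CPM in liver, Berkshire first, and 0.392 and 0.394 CPM in fat. Within liver, 13 of the 14 passed the minimum of 10 CPM, 2 were at least 2-fold lower in the Korean native library (background 5.53%) and none was higher (5.76%). IL1R1, the receptor of interleukin-1, had 1869 and 413 CPM, a 4.52-fold difference (counting interval 4.33 to 4.73). STAT3, which carries the interleukin-6 signal, had 730 and 183 CPM, a 3.98-fold difference (3.72 to 4.26). The livers have 1 library each, so these ratios have no test, and their relation to MBL2, C3 and C4A was not tested.

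Other marker lists bear on the fat libraries. Neutrophil markers summed to 4.50 CPM in Berkshire fat and 5.03 CPM in Korean native fat, lymphocyte markers to 41.3 and 40.0 CPM and endothelial markers to 1072 and 791 CPM. Mesothelial and epithelial markers summed to 8.23 and 18.5 CPM. WT1, at 5.39 and 0.197 CPM, and CDH1 went against KRT8. Over all 37 matched complement genes the summed level was 1245 CPM in Berkshire fat and 2149 CPM in Korean native fat, 41615 and 27457 CPM in liver and 1306 and 629 CPM in muscle.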
